A study of Mus musculus with 6 samples.

Results

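The genes described here encode the cytoplasmic plaque of the desmosome and one membrane partner of it: desmoplakin (Dsp), plakoglobin (Jup), the plakophilins (Pkp1, Pkp2, Pkp3 and Pkp4), periplakin (Ppl), envoplakin (Evpl) and Perp. They were chosen by name, 9 genes of 30349 listed and of 11716 tested, and all 9 passed the filter on low values. RNA was measured in cultured primary epidermal keratinocytes taken from mice at postnatal day 2, in 3 libraries labelled p63 alphaKO (replicates 9, 10 and 11) and 3 labelled wild type (replicates 13, 14 and 15). All cultures were grown for 5 to 6 days to confluence in medium with 0.05 mM calcium, 4% chelated serum and 2.5 ng/mL EGF, a calcium concentration at which keratinocytes form few mature junctions. The labels name no strain, Cre driver or deleted exon for the p63 alphaKO genotype, and do not tie each library to its own mouse, so p-values measure the spread between these libraries, which may be technical.

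Desmosomes hold neighbouring keratinocytes together. Their cadherins, the desmogleins and desmocollins, bind across the gap between cells, and their tails bind the armadillo proteins plakoglobin and plakophilin, which in turn bind desmoplakin, the plakin that anchors the keratin filaments. Periplakin and envoplakin are related plakins that are crosslinked into the cornified envelope, and Perp is a tetraspan membrane protein, known in mice as a p63 target and as a gene needed for intact desmosomes in stratified epithelia.

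Libraries held 1699716 to 2999246 reads in p63 alphaKO and 3146374 to 3215333 reads in wild type, and levels are counts per 1000000 reads of a library (CPM). The assay sequences the 3' ends of transcripts, so a level is one value per gene and tells nothing of splice forms. The keratinocyte genes Krt5 and Krt14 stood at 8471 CPM or more in all 6 libraries. Trp63 was at 49.8, 59.3 and 57.0 CPM in p63 alphaKO and at 38.0, 53.2 and 48.9 CPM in wild type, which does not check the genotype, since a 3' count does not tell which transcript a read came from. The libraries p63 alphaKO 11 and wild type 15 stood apart from the others in an earlier look at these data, and several fold changes are also given without one or both of them.

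Of the 9 genes, 3 have an entry in the RefSeq promoter table (GRCm38.p6; 250 bases before to 50 after the annotated start): Dsp, Jup and Pkp4. The sequences of Dsp and Jup are shown because these 2 had the largest SD of log2(CPM + 1) within groups among the 9 genes (0.75 and 0.62). They are printed 5′ to 3′ on the strand of the gene, Dsp at chr13:38151044-38151343 (plus strand) and Jup at chr11:100397741-100398040 (minus strand). Capitals mark the GC box (GGGCGG) and the CCAAT box (CCAAT), each searched on both strands.
Dsp: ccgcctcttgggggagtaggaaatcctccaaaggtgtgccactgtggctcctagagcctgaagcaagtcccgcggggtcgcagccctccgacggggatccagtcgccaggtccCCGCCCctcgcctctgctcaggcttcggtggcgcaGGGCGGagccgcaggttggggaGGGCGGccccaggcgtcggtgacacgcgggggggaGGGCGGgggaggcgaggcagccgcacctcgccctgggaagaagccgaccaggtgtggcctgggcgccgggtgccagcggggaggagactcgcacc
Jup: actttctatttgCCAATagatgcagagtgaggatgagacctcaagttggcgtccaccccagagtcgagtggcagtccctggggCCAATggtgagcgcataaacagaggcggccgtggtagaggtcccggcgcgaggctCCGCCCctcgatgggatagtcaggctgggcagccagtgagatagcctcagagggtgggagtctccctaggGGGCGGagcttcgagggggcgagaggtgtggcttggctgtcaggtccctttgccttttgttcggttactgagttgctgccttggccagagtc

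The Dsp window held 4 GC boxes and no CCAAT box, and 73% of its bases were G or C, against a median of 52.7% over 27025 promoters of the same length. The Jup window held 2 GC boxes and 2 CCAAT boxes, with 60.7% G or C. The first of the Pkp4 windows held 6 GC boxes, some of which overlap one another or a CCAAT box, and 3 CCAAT boxes. A GC box was found in 35.9% of all promoters and a CCAAT box in 37.9%. None of these windows held the TATA box (TATAAA), which 14.2% of promoters did. The paired core of the p63 response element (CNNG repeated with a gap of 6 bases, any base at N) matched at 3 places in Dsp, 3 in the first Pkp4 window and none in Jup, and since 70.0% of all promoters hold a match these letters separate few promoters.

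No plaque gene passed the test between p63 alphaKO and wild type keratinocytes. Of the 9 genes, 7 had a log2 fold change below 0 and 2 above it, with a median of -0.08, against 49.3% of all tested genes below 0 and a median of 0.01. Without p63 alphaKO 11, 4 of the 9 were below 0 and their median was 0.15. Without p63 alphaKO 10, 7 were below 0 with a median of -0.37. With all 6 libraries, edgeR and DESeq2 on the recovered reads each placed 5 of the 9 below 0 (medians -0.03 and -0.02). Called by limma at an adjusted p under 0.05 were 0 of the 9, where the background over all tested genes was 0.0427%. Before adjustment 0 of the 9 were under 0.05, against 6.36% of all genes. On the recovered reads edgeR and DESeq2 also called 0 of the 9, with 0 under 0.05 unadjusted. In 4 other limma fits 1 of the 9 was under 0.05 unadjusted: no trend, without p63 alphaKO 9, without wild type 15, and without p63 alphaKO 11 and wild type 15. In these fits 827, 640, 796 and 1078 of 11716 genes were under 0.05. The 95% intervals were wide: the one of Perp, the narrowest, ran from a fold of 0.759 to 1.41, and that of Dsp from 0.582 to 1.68. In data simulated for this comparison, 1.6% of genes changed 1.5-fold and 27.2% of genes changed 2-fold were called, among genes of at least 5 CPM. Counts were drawn independently for each gene, without shifts shared by the genes of a library. The rates cover genes of many levels and are not rates for the 9 genes, of which Pkp2 lay under 5 CPM.

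**Figure D1:**
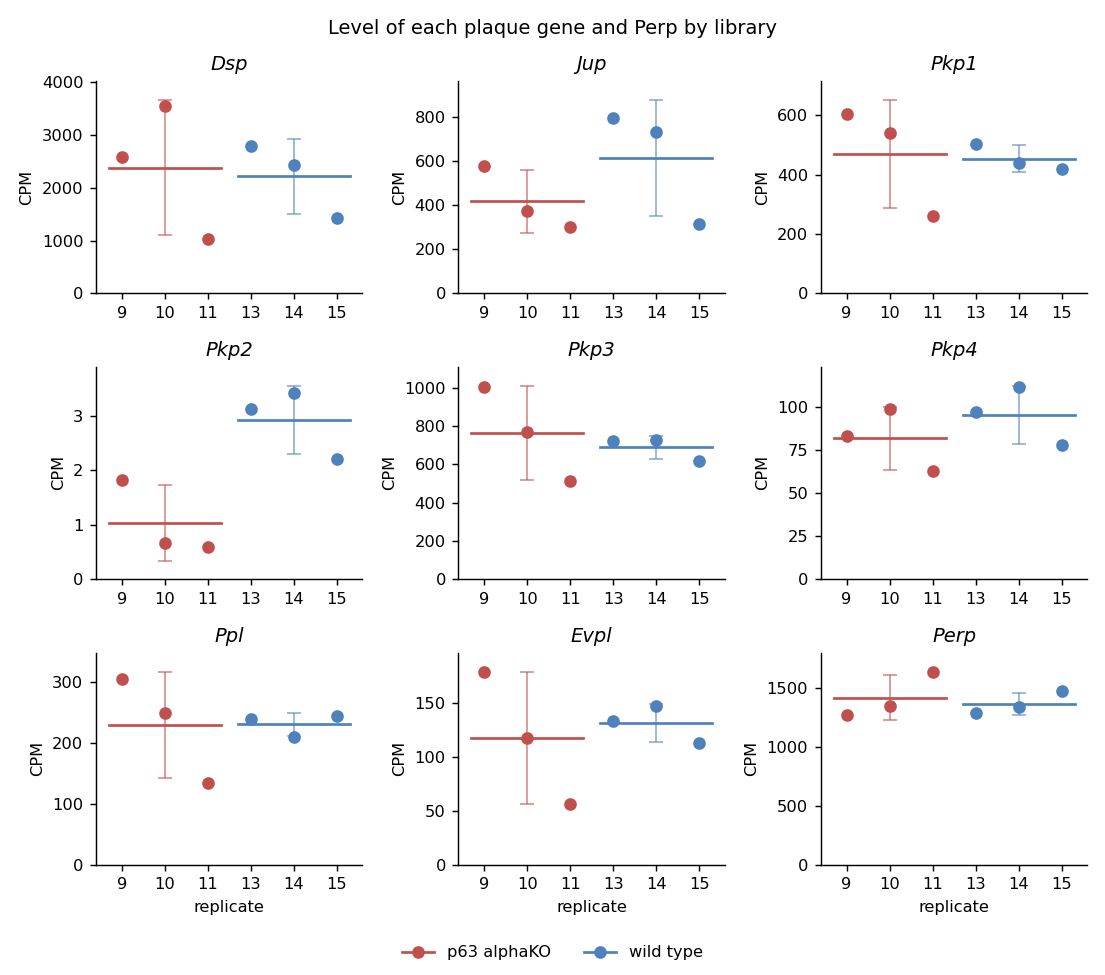
Level of each of the 9 genes in CPM (y axis, from 0) in each library (x axis, replicate number), with p63 alphaKO in red and wild type in blue; horizontal lines are group means and bars are ± 1 SD (n = 3 each). The groups overlap in every panel but that of Pkp2, and p63 alphaKO 11 is the lowest library for 8 of the 9 genes.

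Dsp encodes desmoplakin, the protein that ties the plaque to keratin. Its gene lies on chromosome 13 (38151294 to 38198577, plus strand, GRCm38), and it alone of the 9 shares exon bases with another annotated gene, Gm10129 on the other strand, away from its 3' end. Dsp was read at 2575, 3552 and 1022 CPM in p63 alphaKO replicates 9, 10 and 11, and at 2790.4, 2430.3 and 1430.4 CPM in wild type replicates 13, 14 and 15. The highest and the lowest library of the 6 were both p63 alphaKO, and the wild type libraries lay between them. The means were 2383 ± 1276 CPM in p63 alphaKO and 2217 ± 705 CPM in wild type (SD, n = 3 each). The log2 fold change, a difference of means of log2(CPM + 1), was -0.02 (SE 0.36, limma adjusted p = 0.997). Its sign is opposite to that of the difference in mean CPM. Within p63 alphaKO the highest library was 3.48 times the lowest, and within wild type 1.95 times. The 1739 reads of Dsp in p63 alphaKO 11 give an exact Poisson 95% interval of 975 to 1071 CPM, and 10659 reads in p63 alphaKO 10 one of 3485 to 3620.1 CPM, both covering counting error only. Without p63 alphaKO 11 the log2 fold change was 0.50 (limma adjusted p = 0.661), without p63 alphaKO 10 it was -0.39 (0.842), and without both p63 alphaKO 11 and wild type 15 it was 0.22 (SE 0.18, 0.753).

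The armadillo proteins come next in the plaque. Jup encodes plakoglobin, which binds the cadherin tails and is also found in adherens junctions (chromosome 11, 100368958 to 100397763, minus strand). Jup was at 578, 373 and 303 CPM in p63 alphaKO replicates 9, 10 and 11, and at 796, 736 and 313 CPM in wild type replicates 13, 14 and 15. Wild type replicates 13 and 14 lay above every p63 alphaKO library, while wild type 15 lay near the lowest. The log2 fold change was -0.50 (SE 0.32, limma adjusted p = 0.866), with a 95% interval from -1.16 to 0.17. Jup had the lowest p of the 9 when wild type 15 was left out, at a log2 fold change of -0.92 (unadjusted p = 0.00424, limma adjusted p = 0.538), and when both p63 alphaKO 11 and wild type 15 were left out, at -0.72 (0.00163 and 0.177). Neither passed the threshold. In these fits 796 and 1078 of 11716 genes were under 0.05 unadjusted. Wild type 15 was the lowest wild type library for Jup, so leaving it out raises the wild type mean by construction. Both libraries were left out because of an earlier look at these data.

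Plakophilins 1 to 3 recruit desmoplakin and keratin to the cell border and enlarge the plaque. Pkp1, the plakophilin of suprabasal epidermis (chromosome 1, 135871395 to 135919207, minus strand), was at 603, 541 and 262 CPM in p63 alphaKO and at 505, 439 and 419 CPM in wild type. Pkp3, found in all living layers (chromosome 7, 141078218 to 141090510, plus strand), was at 1007, 771 and 516 CPM in p63 alphaKO and at 723, 726 and 618 CPM in wild type. For both genes p63 alphaKO replicates 9 and 10 lay above all 3 wild type libraries and replicate 11 below them. Pkp1 averaged 469 CPM in p63 alphaKO and 454 CPM in wild type, the opposite direction to its difference on the log2(CPM + 1) scale. The log2 fold changes were -0.04 for Pkp1 (SE 0.27) and 0.10 for Pkp3 (SE 0.24), with limma adjusted p of 0.997 and 0.990. Without p63 alphaKO 11 they were 0.34 (limma adjusted p = 0.68) and 0.36 (0.676), and the sign of Pkp1 also turned without wild type 13, that of Pkp3 without p63 alphaKO 9 (-0.12).

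Pkp2, the plakophilin of simple epithelia and the heart (chromosome 16, 16213318 to 16272712, plus strand), was the 1 gene of the 9 whose groups did not overlap. It was lower in p63 alphaKO, at 1.83, 0.67 and 0.59 CPM in replicates 9, 10 and 11, against 3.14, 3.42 and 2.22 CPM in wild type replicates 13, 14 and 15. These levels are 4, 2 and 1 reads in p63 alphaKO and 10, 11 and 7 reads in wild type. The pooled reads, 7 of 6887667 and 28 of 9542691, give a rate ratio of 0.346 with an exact 95% interval of 0.128 to 0.812, which covers counting error and not the spread between libraries. The limma log2 fold change was -0.99 (SE 0.55, adjusted p = 0.816), a value that moves with the pseudocount, from -0.40 with a pseudocount of 5 to -1.24 with 0.5. Of all tested genes 5.09% had groups that did not overlap in this direction and 6.45% in the other, where 1 and 0 of the 9 genes did, so 1 such gene is no result about the list.

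Pkp4, the broadly expressed p120-related member that also sits in adherens junctions (chromosome 2, 59160850 to 59355208, plus strand), was at 83.6, 99.3 and 62.9 CPM in p63 alphaKO and at 97.1, 111.6 and 78.1 CPM in wild type. The groups overlapped. Its log2 fold change of -0.23 (SE 0.25, limma adjusted p = 0.930) was below 0 with all 6 libraries and in each of the 6 fits that left 1 library out.

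The envelope plakins had patterns over the libraries near that of Pkp1 (root mean square difference on the log2 scale 0.11 for Ppl and 0.22 for Evpl). Ppl (chromosome 16, 5086291 to 5132421, minus strand) was at 306, 249.6 and 135 CPM in p63 alphaKO replicates 9, 10 and 11, and at 239, 209.8 and 244 CPM in wild type replicates 13, 14 and 15. Evpl, its partner in the envelope (chromosome 11, 116220559 to 116238077, minus strand), was at 179, 118 and 56.4 CPM in p63 alphaKO and at 133, 147 and 112 CPM in wild type. In both genes the p63 alphaKO libraries held the highest and the lowest value of the 6, and wild type varied less. Evpl ranged 3.16-fold within p63 alphaKO and 1.31-fold within wild type. The log2 fold changes were -0.08 for Ppl (SE 0.27, limma adjusted p = 0.994) and -0.29 for Evpl (SE 0.32, 0.930), and without p63 alphaKO 11 they were 0.26 and 0.15, on the other side of 0.

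Perp (chromosome 10, 18845020 to 18857073, plus strand), described in mice as an effector of p53 in cell death before its role in desmosomes was known, was the steadiest of the 9. It was at 1266, 1346 and 1633 CPM in p63 alphaKO and at 1281, 1332 and 1467 CPM in wild type. Perp was highest in p63 alphaKO 11, the library in which each of the other 8 genes was lowest. The means were 1415 ± 193 CPM in p63 alphaKO and 1360.1 ± 95.9 CPM in wild type (SD, n = 3 each), a log2 fold change of 0.05 (SE 0.21, limma adjusted p = 0.995).

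**Figure D2:**
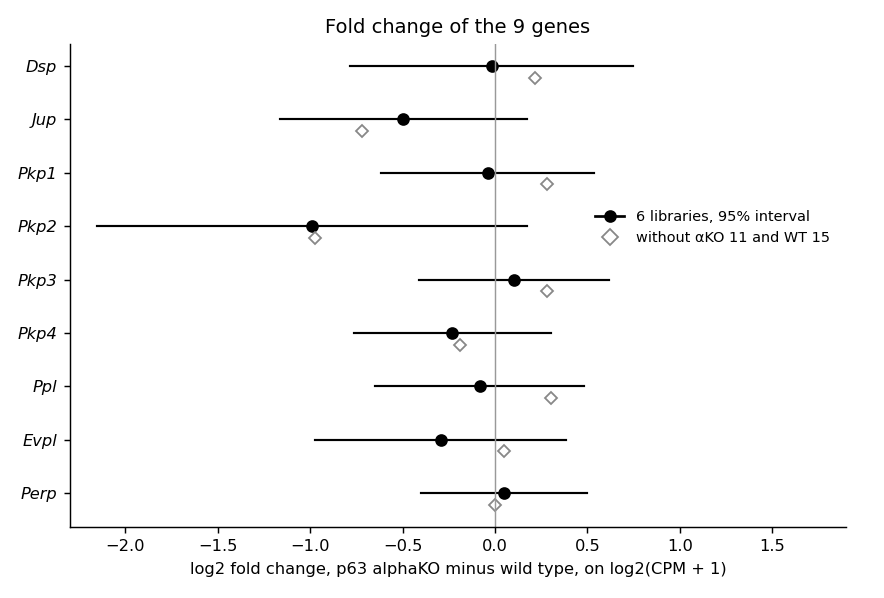
Log2 fold change of each gene, p63 alphaKO minus wild type, on log2(CPM + 1) (x axis), with filled circles and 95% intervals from limma on 6 libraries (n = 3 each) and open diamonds for the fit without p63 alphaKO 11 and wild type 15. Every interval crosses 0, and Pkp2, read in at most 11 reads per library, has the widest.

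The 9 genes together made up 0.66%, 0.705% and 0.399% of the reads in p63 alphaKO replicates 9, 10 and 11, and 0.657%, 0.614% and 0.469% in wild type replicates 13, 14 and 15. The lowest shares were those of p63 alphaKO 11 and wild type 15. Dsp accounted for 39.0%, 50.4% and 25.6% of this sum in p63 alphaKO and 42.5%, 39.6% and 30.5% in wild type. In p63 alphaKO 11, 8 of the 9 genes had their lowest level of all 6 libraries, which held for 26.3% of all tested genes. This library also had the fewest reads of the 6, 1699716, and the part of depth in its levels was not tested. Wild type 15 was the lowest wild type library for 7 of the 9, against 38.6% of all tested genes.

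Levels in the 6 libraries were also compared by transcript length, a pattern looked for after the values of the 9 genes were seen. Genes whose longest annotated transcript exceeds 8000 bases (651 tested) had a median deviation from their own 6-library mean, on the log2(CPM + 1) scale, of 0.17, 0.24 and -0.38 in p63 alphaKO replicates 9, 10 and 11, and of 0.16, 0.09 and -0.25 in wild type replicates 13, 14 and 15. Genes of up to 1000 bases (582) ran the other way, at -0.08, -0.13 and 0.38 in p63 alphaKO and at -0.13, -0.11 and 0.15 in wild type. Dsp, with a transcript of 9592 bases, deviated by 0.28, 0.74 and -1.05 in p63 alphaKO and by 0.40, 0.20 and -0.57 in wild type. Perp, with 1952 bases the shortest of the 9, deviated by -0.13, -0.04 and 0.24 in p63 alphaKO and by -0.11, -0.05 and 0.09 in wild type. The others did not all follow their length class. In p63 alphaKO 11, Jup, Pkp2 and Pkp3 (2919 to 3205 bases) were at -0.66, -0.80 and -0.46, where genes of 2000 to 4000 bases had a median of 0.007. Pkp1, Pkp4, Ppl and Evpl (4614 to 6384 bases) were at -0.77, -0.47, -0.72 and -1.04, where genes of 4000 to 8000 bases had -0.18. The medians of long genes lay below those of short genes in p63 alphaKO 11 and wild type 15 and above them in the other 4 libraries. When each library was centred on its own curve against transcript length, the within-group SD of Dsp was 0.48 in place of 0.75, that of Perp 0.09 in place of 0.15, and that of Jup, with 3205 bases, 0.60 in place of 0.62. The SD stayed at 0.37 for Pkp2 and at 0.36 for Pkp3. It was 0.39 in place of 0.47 for Pkp1, 0.20 in place of 0.29 for Pkp4, 0.33 in place of 0.44 for Ppl and 0.47 in place of 0.60 for Evpl. The log2 fold changes after this centring were -0.03 for Dsp (SE 0.26) and -0.49 for Jup (SE 0.29), and 0 of the 9 genes passed (limma adjusted p = 0.711 or more).

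**Figure D3:**
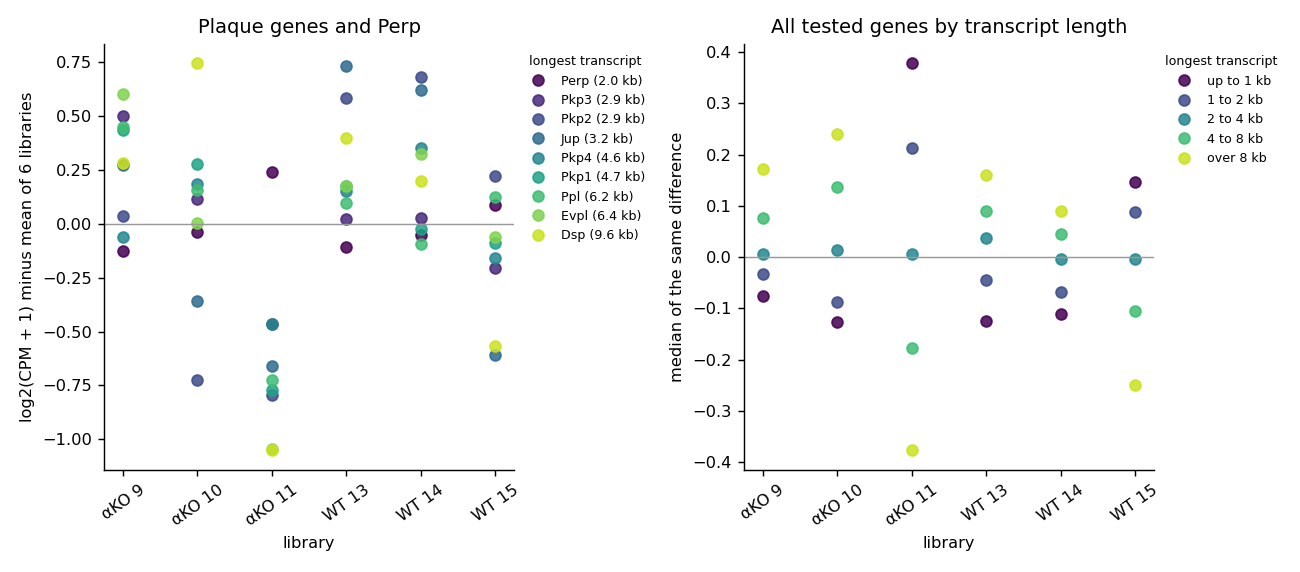
Left, log2(CPM + 1) of each of the 9 genes minus its mean over the 6 libraries (y axis) by library (x axis), coloured by longest annotated transcript; right, the median of the same difference over all tested genes in 5 classes of transcript length, on its own scale. In p63 alphaKO 11 and wild type 15 genes over 8000 bases lie lowest (-0.38 and -0.25) and genes up to 1000 bases highest (0.38 and 0.15), and Dsp lies at -1.05 and -0.57.

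Markers of other cell types were summed in each library. In bulk RNA, fewer cells of a type and less RNA per cell cannot be told apart. The 9 melanocyte markers, all detected, summed to 552, 1026 and 232 CPM in p63 alphaKO and to 823, 756 and 308 CPM in wild type, lowest in the same libraries as Dsp. The 10 muscle markers, of which Myh3 and Myh8 were at 0 throughout, summed to 17.4 to 74.1 CPM in p63 alphaKO and to 78.2, 84.6 and 694 CPM in wild type, highest in wild type 15. The 8 fibroblast markers, with Lum at 0, summed to 17.4, 45.7 and 5.88 CPM in p63 alphaKO and to 46.8, 33.3 and 18.8 CPM in wild type. Like the melanocyte sums, they were lowest of each genotype in p63 alphaKO 11 and wild type 15. The 5 endothelial markers (Kdr at 0) reached at most 5.29 CPM and the 6 immune markers (Cd207, Cd3e and Tyrobp at 0) at most 0.91 CPM. The 20 mitosis genes summed to 1184, 1259 and 1072 CPM in p63 alphaKO and to 1419.6, 1586 and 2532 CPM in wild type. Of these, 20 of 20 had a log2 fold change below 0, against 49.3% of all tested genes, and none passed the threshold. Before adjustment 12 of the 20 were under a limma p of 0.05, against 6.36% of all tested genes in either direction. In 11 the groups did not overlap, lower in p63 alphaKO, against 5.09% of all tested genes. The part of these differences in the levels of the plaque genes was not tested.

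Ratios of 2 genes within a library do not depend on how the library was scaled, and 5 such ratios were compared. Dsp stood to Jup as 4.45, 9.52 and 3.38 to 1 in p63 alphaKO and as 3.51, 3.30 and 4.57 to 1 in wild type. The difference in the mean log2 ratio was 0.48, and 0.05 without p63 alphaKO 10 (exact permutation p = 0.6 with all 6 libraries, two-sided, 0.1 being the smallest p that 3 against 3 allows). The ratio of Pkp1 to Pkp3 was the steadiest, at 0.599, 0.702 and 0.507 in p63 alphaKO and 0.698, 0.604 and 0.678 in wild type. Ppl stood to Evpl as 1.71, 2.12 and 2.40 to 1 in p63 alphaKO and as 1.80, 1.42 and 2.17 to 1 in wild type. The ratio of Perp to Dsp was the most variable, at 0.492, 0.379 and 1.60 in p63 alphaKO and 0.459, 0.548 and 1.03 in wild type, with its highest value of each genotype in replicates 11 and 15. The groups overlapped in all 5 ratios, the exact permutation p ran from 0.5 to 1, and after Benjamini-Hochberg adjustment over the 5 every p was 1.

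**Figure D4:**
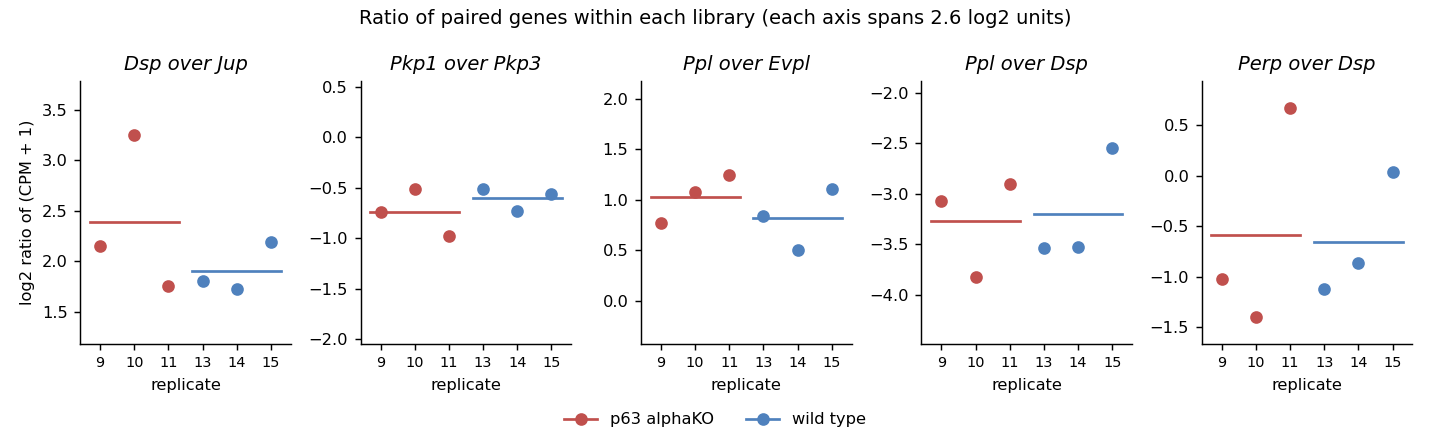
Log2 ratio of (CPM + 1) for 5 pairs of genes (y axis, each spanning the same number of log2 units) in each library (x axis, replicate number), p63 alphaKO in red and wild type in blue, with lines at the group means. The groups overlap in all 5, and Perp over Dsp is highest in p63 alphaKO 11 and wild type 15.

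The genes were also compared by how alike their patterns over the 6 libraries were, as the root mean square difference of log2(CPM + 1) after each gene was set to its own mean; this is a description, over libraries of unequal depth and makeup. The closest of the 36 pairs were Pkp1 with Ppl (0.11), Pkp1 with Pkp3 (0.17) and Pkp3 with Ppl (0.18). The farthest were Dsp with Perp (0.73) and Dsp with Pkp2 (0.73). Among the 6167 other genes that averaged 20 CPM or more, those nearest to Dsp were Abl1, a tyrosine kinase, at 0.08, Gpnmb, a glycoprotein abundant in melanocytes, at 0.10, and Zmat3, a zinc finger gene regulated by p53, at 0.10. None of these belongs to the junction lists. Gpnmb was at 68.5, 109.3 and 24.7 CPM in p63 alphaKO and at 75.1, 68.4 and 36.2 CPM in wild type. Abl1, Gpnmb and Zmat3 were picked for likeness to Dsp over the same 6 libraries. That they were low where Dsp was low follows from this choice, and a link to the melanocyte sums was not tested. Nearest to Perp were Wdr45b (0.03), Prdx5, a peroxiredoxin (0.04), and Actr3, a subunit of the actin-nucleating Arp2/3 complex (0.05).

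The partners of the plaque were read the same way. Of all tested genes, 49.3% were below 0 and 0.0427% passed, the shares to set beside the counts of each list. Of the 9 desmosomal cadherin genes 7 were tested, 6 with a log2 fold change below 0 and none past the threshold (median -0.27, against 0.01 over all genes). Dsc2, a desmocollin, was the member above 0, at 59.4, 28.0 and 49.96 CPM in p63 alphaKO and 17.0, 21.8 and 41.3 CPM in wild type (0.79, limma adjusted p = 0.767), and the groups overlapped. Dsg1a, one of the mouse copies of desmoglein 1, did not overlap, at 22.8, 17.0 and 16.5 CPM in p63 alphaKO and 33.9, 28.6 and 26.7 CPM in wild type (-0.64, 0.775). Reads of Dsg1a can be shared with its close copies Dsg1b and Dsg1c, so that its own level is uncertain.

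Of the 10 adherens junction genes 8 were tested, 7 below 0 and none past the threshold (median -0.14, and 0.01 without p63 alphaKO 11). Ctnnd1 encodes p120 catenin, the armadillo protein that holds classical cadherins at the membrane. In the annotation its exons overlap those of a gene on the same strand, Gm28635, away from the 3' end of Ctnnd1. In 2 of the 8 tested genes, Ctnnd1 and Cdh3, the groups did not overlap, lower in p63 alphaKO, against 5.09% of all tested genes. Ctnnd1 was at 85.8, 76.0 and 91.7 CPM in p63 alphaKO and at 224, 210.4 and 107 CPM in wild type. Its log2 fold change was -1.02 (SE 0.27, limma adjusted p = 0.465), and without p63 alphaKO 11 and wild type 15 it was -1.42, past the threshold (limma adjusted p = 0.00194). That fit called 31 genes in place of 5, and its 2 libraries were left out because of an earlier look at these data. Of the wild type libraries, replicate 15 was the nearest to p63 alphaKO in Ctnnd1. Cdh3, P-cadherin, stood at -0.33 (0.909).

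The other plakins link filaments to the cytoskeleton or to hemidesmosomes. Dst, dystonin, named after its values were seen, was at 1025, 1376 and 393 CPM in p63 alphaKO and at 991, 1163 and 472 CPM in wild type, lowest in p63 alphaKO 11 and wild type 15. None of the 3 measured passed (median 0.01, and 0.38 without p63 alphaKO 11, -0.31 without wild type 15), with Plec at 0.07 and Macf1 at -0.01. Eppk1 was not found in the table under that symbol.

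Among the keratins that desmosomes anchor, 9 of 9 tested genes were below 0 and 1 passed, in the same direction (median -0.54), against 49.3% and 0.0427% of all tested genes. The difference was uneven over the list. Before adjustment 4 of the 9 were under a limma p of 0.05, against 6.36% of all tested genes in either direction. By contrast, Krt14 averaged 13252 CPM in p63 alphaKO and 13349 CPM in wild type, and Krt16 3847 and 4014 CPM. Krt1, the suprabasal keratin, fell to 74.4, 31.0 and 47.6 CPM in p63 alphaKO, against 185, 249 and 401 CPM in wild type (-2.44, SE 0.32, limma adjusted p = 0.00686). Krt1 did not pass when limma was run with no trend (adjusted p = 0.326), a fit that called 0 genes in the whole table, with 827 at an unadjusted p under 0.05. The 17 partners and regulators of desmosomes, among them kinases, palmitoyl transferases and microtubule organisers, had 13 below 0 and none past the threshold (median -0.09, and 0.08 without p63 alphaKO 11). Zdhhc5 and Zdhhc8, genes of palmitoyl transferases, of which Zdhhc5 overlaps Med19 on the other strand at its 3' end, stood at -0.25 and -0.47 (limma adjusted p = 0.926 for both).

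Genes of the cornified envelope, into which Ppl and Evpl are crosslinked, had 13 of 16 below 0 and none past the threshold (median -0.27), with Rptn at -1.86 (limma adjusted p = 0.716) and Flg2 at -1.42 (0.729), whose groups overlapped. Rptn, with 86 of its wild type reads in replicate 15, 12 in replicate 13 and 20 in replicate 14, was at -1.10 without wild type 15 and at -1.13 without p63 alphaKO 9. Flg2 was at -0.85 without p63 alphaKO 11 and at -2.27 without p63 alphaKO 10, and neither gene passed in these fits. Of the 4 tetraspan genes related to PMP22, the family nearest to Perp, 3 were below 0 and none passed (median -0.03, and 0.06 without wild type 15). Emp1 was the 1 of the 4 whose groups did not overlap, lower in p63 alphaKO, against 5.09% of all tested genes. It was at 125, 144 and 172 CPM in p63 alphaKO and at 182, 238 and 279 CPM in wild type (-0.65, limma adjusted p = 0.716). Pmp22 was at 5.67 CPM or less in all libraries (0.44, 0.973).

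**Figure D5:**
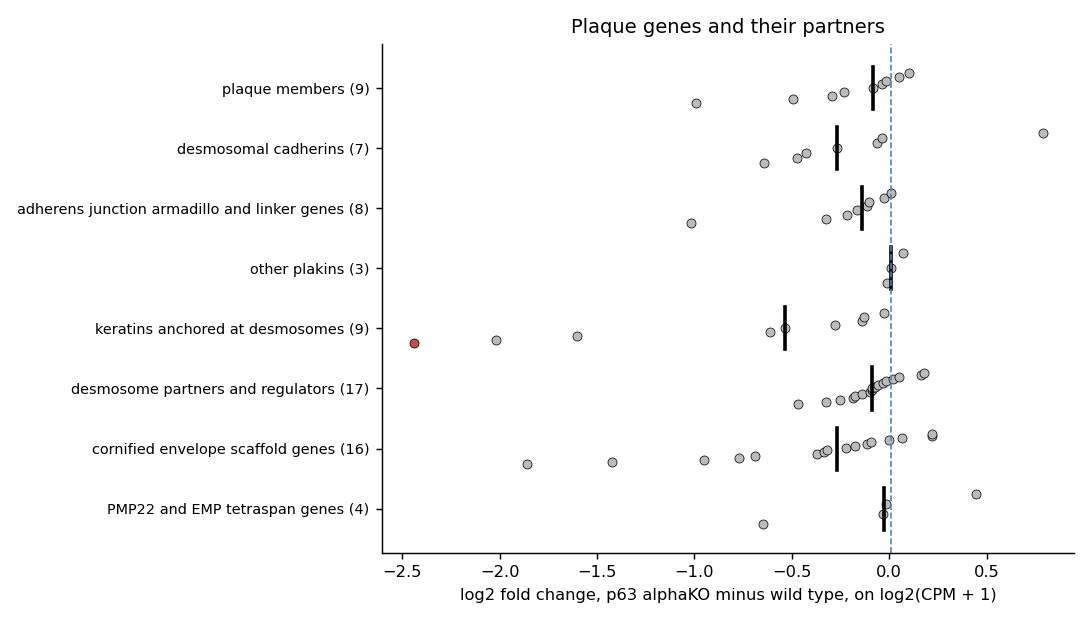
Log2 fold change, p63 alphaKO minus wild type, on log2(CPM + 1) (x axis) of each tested gene in 8 lists (rows, number tested in brackets), with black bars at list medians and a dashed line at the median of all tested genes (0.01). The 1 red point, past an adjusted p of 0.05, is Krt1 at -2.44, and the plaque genes have a median of -0.08.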

How the data were processed

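The authors deposited 1 table of CPM with 6 columns, 1 per library, whose values give back whole reads (over the libraries, 99.97% to 99.99% of the positive values are a whole number of reads to within 0.1). The submitters' processing notes name STAR, HTSeq and mm10. Tool versions, the annotation and whether molecular identifiers were used were not given in the sources used here, so intervals on reads cover counting error only. The 11716 genes that averaged 1 CPM or more were tested with limma 3.58.1 in R 4.3.3 (mean-variance trend) on log2(CPM + 1), two-sided, with Benjamini-Hochberg adjustment over all of them and a threshold of 0.05. A fold change is on that log2 scale and understates changes of low genes. edgeR 4.0.16 and DESeq2 1.42.0 were run on the recovered reads of the same genes as alternatives. On 5 data sets simulated for this comparison, with 11716 genes each, the test called 27.2% of genes changed 2-fold and 84.4% of those changed 4-fold, among genes of at least 5 CPM. The simulated counts were independent between genes and held no shift shared within a library. Coordinates and transcript lengths are from GENCODE vM21 (GRCm38), in which 28516 of 30349 symbols were found once and 98.6% of tested genes had a length. The members, lists and tests were chosen with earlier results of these data known. From each list, members past the threshold are named, or the 2 of smallest p, with others given by their level only.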

Additional observations from a re-analysis of the deposited data

How the results depend on the processing

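None of the 9 genes passed the adjusted threshold under any of the 17 alternatives run (Pkp2, under 5 CPM, has no value with a minimum mean of 5 CPM). The number of genes called over the whole table, 5 in the main test, was 2 with a pseudocount of 0.5, 3 with 5, 1 with no filter, 2 with a minimum of 5 CPM, 0 with no trend (limma; 827 at an unadjusted p under 0.05), 2 by edgeR, 15 by DESeq2, 3 after centring on transcript length (added after seeing the data), 31 without p63 alphaKO 11 and wild type 15, and 2 to 12 with 1 library left out. Without p63 alphaKO 11 and wild type 15, 4 in place of 7 plaque genes were below 0, and signs turned for Dsp (0.22), Pkp1 (0.28), Ppl (0.30), Evpl (0.0503), Perp (-0.000807), Zmat3 (0.000256) and Actr3 (-0.00139). By edgeR and DESeq2, Dsp was at 0.0801 and 0.0874 and Pkp1 at 0.0214 and 0.0285. Macf1 was at 0.0112 with quantile normalization, and Gpnmb at -0.000803 with a pseudocount of 0.5, -0.0182 with TMM and -0.0127 with quantile normalization. Krt1 did not pass with no trend (limma adjusted p = 0.326).

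With 1 library left out, 4 to 8 plaque genes were below 0, and log2 fold changes ran from -0.39 to 0.50 for Dsp, -0.92 to -0.25 for Jup, -0.27 to 0.34 for Pkp1, -1.26 to -0.84 for Pkp2, -0.12 to 0.36 for Pkp3, -0.38 to -0.05 for Pkp4, -0.33 to 0.26 for Ppl, -0.67 to 0.15 for Evpl and -0.0565 to 0.127 for Perp. They ran from -0.26 to 0.38 for Plec, -0.31 to 0.29 for Macf1, -0.22 to 1.15 for Pmp22, -2.39 to -1.10 for Rptn, -2.27 to -0.85 for Flg2, -0.23 to 0.63 for Abl1, -0.46 to 0.59 for Gpnmb, -0.52 to 0.30 for Zmat3, -0.0372 to 0.112 for Wdr45b, -0.0729 to 0.143 for Prdx5 and -0.0591 to 0.13 for Actr3. The list medians that crossed 0 ran from -0.22 to 0.0818 for partners and regulators, -0.28 to 0.0112 for adherens junction genes, -0.31 to 0.38 for other plakins, -0.15 to 0.056 for tetraspan genes and -0.37 to 0.15 for the plaque genes, and the ratio differences from -0.24 to 0.26 for Ppl over Dsp and -0.56 to 0.48 for Perp over Dsp. The cause of these turns was not tested. No paired analysis was possible because the groups share no replicate numbers.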
